A study of Mus musculus with 6 samples.

Results

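Chemokines are small secreted proteins that call leukocytes into tissue, and their receptors are G protein-coupled receptors on the cells that respond. The genes described here are those whose symbol starts with Ccl, Cxcl, Ccr, Cxcr or Ackr and a number, together with Cx3cl1, Cx3cr1, Xcl1 and Xcr1, taken from array probe sets that the annotation assigns to 1 gene symbol. This gave 56 genes of 22180 tested, made up of 34 ligands, 18 signalling receptors and 4 atypical receptors, which bind chemokines without G protein signalling. For Ccl27a, which had more than 1 such probe set, the one with the highest mean was used.

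Liver RNA of male C57BL/6N mice aged 2 months was hybridised to 1 array per sample, with 3 arrays from knockout livers (KO) and 3 from control livers (WT). The KO mice lacked cGMP-dependent protein kinase 1 (cGK1, gene Prkg1) and carried a rescue in smooth muscle. The promoter of the rescue and the deleted part of the gene are not given in the sources used here. The controls are called wild type in the sample labels and control mice in the series description. Values are log2 expression from RMA, a method that subtracts background, makes the distributions of the arrays alike and merges each probe set into 1 value. Differences are KO minus WT on that log2 scale, so a difference of 1 is a doubling. P-values come from limma, a linear model that shares variance information between genes, and adjusted p-values are Benjamini-Hochberg values over all 22180 genes with a threshold of 0.05.

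In the liver, Kupffer cells, sinusoidal endothelial cells, stellate cells and hepatocytes can all make chemokines, and these genes are known for sharp induction when the tissue is injured or infected. CC and CXC ligands are named for the spacing of their first cysteines. Inflammatory ligands draw neutrophils or monocytes from blood, whereas homeostatic ligands hold resident cells in place. In whole-liver RNA, fewer cells of a type and less RNA per cell cannot be told apart.

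Prkg1 lay at 3.31, 3.04 and 3.22 in KO arrays and at 3.32, 2.97 and 2.95 in WT arrays, close to the median of the whole table (3.14). It did not separate the groups (difference 0.11, SE 0.15, limma adjusted p = 0.837), so this dim signal does not check the genotype labels. Hepatocyte markers were high on every array, with a mean log2 level over 12 genes of 11.03 to 11.08 in KO arrays and 11.08 to 11.21 in WT arrays. Array medians ran between 3.11 and 3.16. WT arrays correlated with each other at 0.989 to 0.990. KO replicate 3 correlated with the WT arrays at 0.981 to 0.983 across genes, and with the other KO arrays at 0.978 and 0.979. It therefore stood nearer to the controls, and some of the results are also given without it. Whether each array came from its own animal is not stated in the labels. The p-values therefore describe the spread between these arrays, which may be technical.

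In the chemokine promoters given by RefSeq (mouse build GRCm38.p6, 250 bases before to 50 after a start site), a match to the NF-kB motif was found for 6 genes. NF-kB is a transcription factor of inflammatory signalling with known target genes among the neutrophil-attracting ligands. The matches are shown because 3 of these genes, Ccl9, Cxcl3 and Ccl20, are among the 4 with the smallest p-values below. Those 3 differed by 0.47, 0.64 and -0.40, and the others, Cxcl1, Cxcl2 and Ccr3, by 0.18, -0.07 and 0.24. A link between the motif and these differences was not tested. Each line gives 10 bases on either side of the match, 5′ to 3′ on the gene's strand, with the motif in capitals.
Ccl9, chr11:83578652-83578681, minus strand: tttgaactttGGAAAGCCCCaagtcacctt
Cxcl3, chr5:90786018-90786047, plus strand: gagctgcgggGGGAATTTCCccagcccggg
Ccl20, chr1:83116676-83116705, plus strand: aatcaatgggGGAAAACCCCgggtgagaac
Cxcl1, chr5:90891164-90891193, plus strand: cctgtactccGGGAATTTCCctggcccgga
Cxcl2, chr5:90903792-90903821, plus strand: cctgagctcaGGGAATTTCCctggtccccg
Ccr3, chr9:124021782-124021811, plus strand: ttccttaagaGGAAATTCCCacattgtttt

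The letters searched, on both strands, were GGG and TTTCC with 2 bases of any kind between them. They were found in 6 of 46 promoters (13%), which belong to 42 of the 56 genes, against 1.63% of 32851 promoters in the table. Cxcl1 and Cxcl2 each held another match beside the one shown. Other motifs searched on both strands were TATAAA, the TATA box, in 30.4% of the chemokine promoters against 13.6% of all, and TGANTCA, the AP-1 site, in 17.4% against 7.81%. An interferon-stimulated element, TTTC repeated after 2 bases of any kind, was in 4.35% against 3.44%, and GAGGAAGT, a site of the ETS factor type, in 2.17% against 3.20%. A match is a description of letters and not a sign that a factor binds there.

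Ccl9 and its neighbour Ccl6 are shown in full because the genes lie side by side, are relatives of each other, and differed in their values. Capitals mark every match to these motifs, and overlapping matches run together.
Ccl9, chr11:83578587-83578886, minus strand: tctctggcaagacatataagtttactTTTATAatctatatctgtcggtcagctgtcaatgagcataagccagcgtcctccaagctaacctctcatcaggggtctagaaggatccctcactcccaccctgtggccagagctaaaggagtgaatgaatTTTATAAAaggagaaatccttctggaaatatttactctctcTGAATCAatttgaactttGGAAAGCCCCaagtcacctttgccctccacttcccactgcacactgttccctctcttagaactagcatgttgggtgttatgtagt
Ccl6, chr11:83593038-83593337, minus strand: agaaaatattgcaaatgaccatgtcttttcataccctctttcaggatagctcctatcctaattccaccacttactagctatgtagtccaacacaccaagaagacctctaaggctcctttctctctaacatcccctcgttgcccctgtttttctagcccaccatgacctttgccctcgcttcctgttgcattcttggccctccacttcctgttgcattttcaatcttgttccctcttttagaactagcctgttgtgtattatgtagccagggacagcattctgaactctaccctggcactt
The Ccl9 window holds TATA, AP-1 and NF-kB matches, and the Ccl6 window holds none of the motifs searched.

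Measured differences in chemokine and receptor RNA between KO and WT livers were small for most genes. Of the 56 genes, 0 passed an adjusted p of 0.05 in limma, as did 0 of all genes (0%), and the smallest adjusted p was 0.326. At an unadjusted p under 0.05 there were 3 genes higher in KO (Ccl9, Cxcl3 and Xcr1), or 5.36%, where the share of all genes was 5.06%. There was 1 lower (Ccl20), or 1.79%, against 5.46% of all genes. The share of chemokine genes past this mark in either direction, 7.14%, was below that of all genes (10.5%). The differences ran between -0.40 and 0.64, and 54 of 56 were smaller than 0.5 in size, as were 95.2% of all genes. Cxcl3 alone reached 1.5-fold. For 54 of the 56 genes the 95% interval lay inside a 2-fold change in either direction, the exceptions being Cxcl3 and Cxcl13, and for 28 it lay inside 1.5-fold. Intervals of this width leave room for shifts in single genes, in some of them beyond 1.5-fold.

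**Figure D1:**
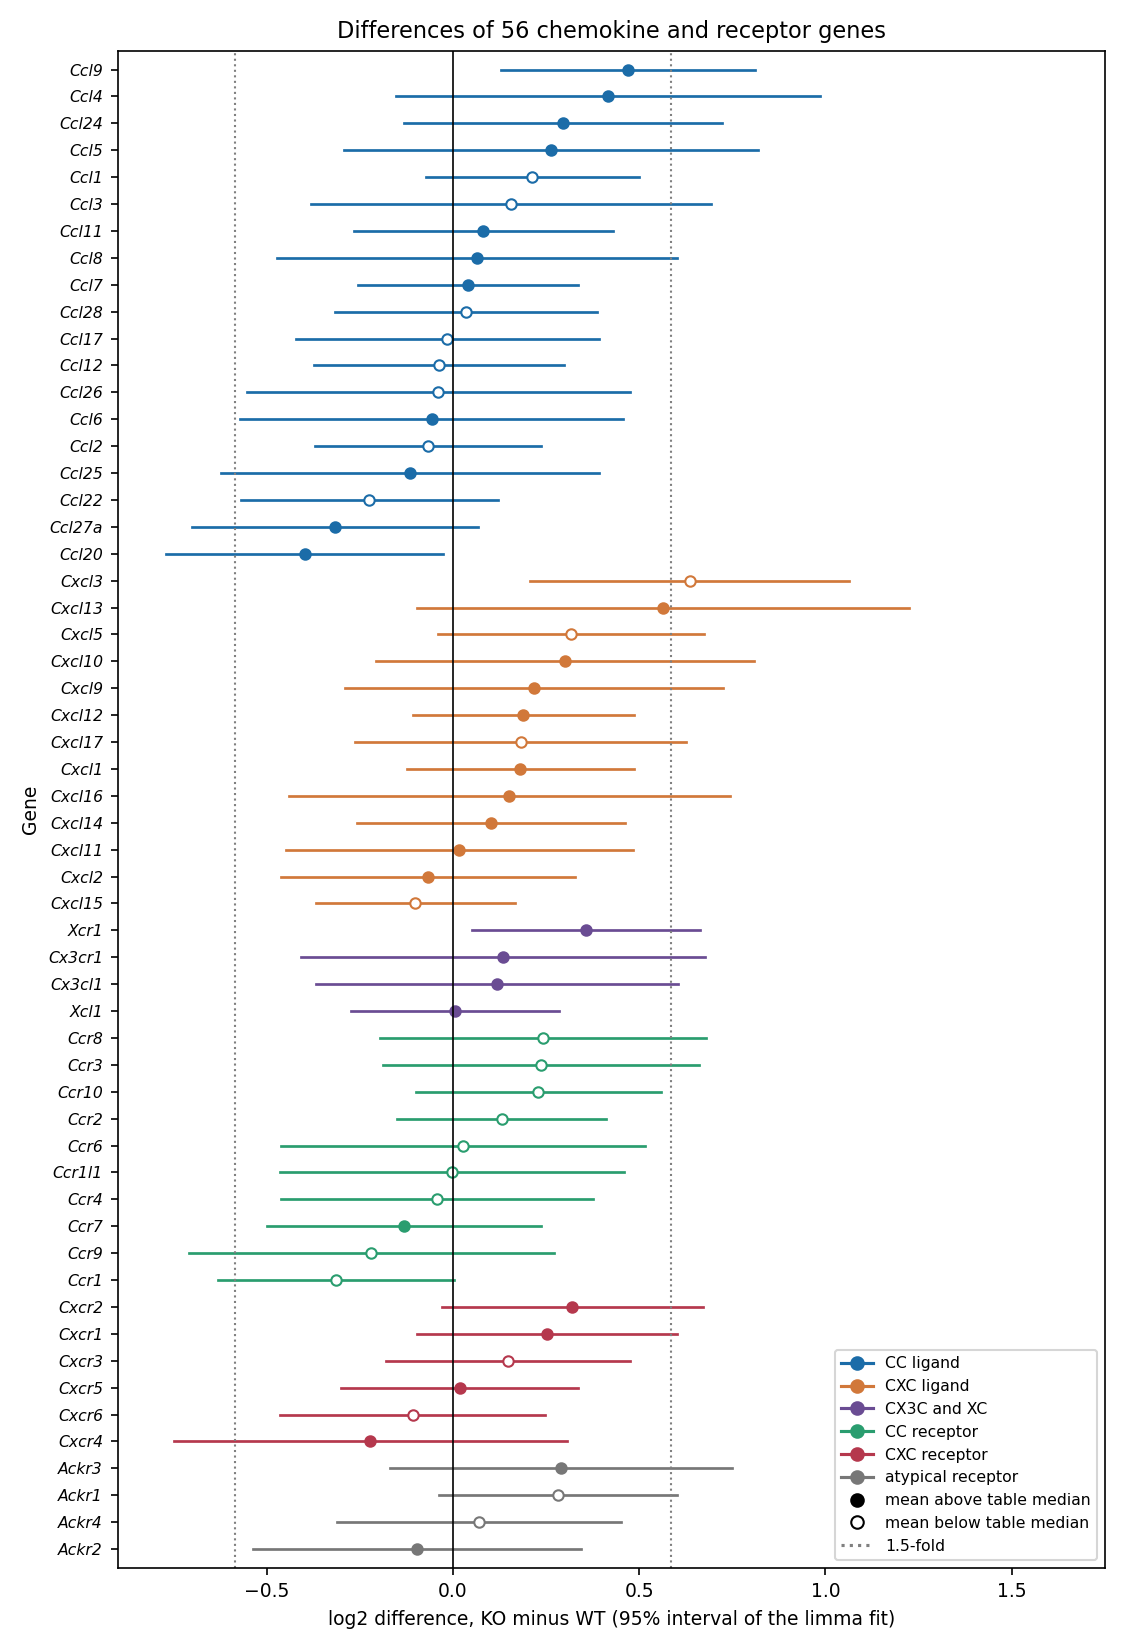
Log2 difference (KO minus WT, x axis) of each of the 56 genes, grouped by family, with the 95% interval of the limma fit from 3 arrays per group; filled points are genes whose mean is above the table median of 3.14 and dotted lines mark 1.5-fold. Most intervals span 0, and Ccl9, Cxcl3, Xcr1 and Ccl20 are the 4 that do not.

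The differences were mostly small and positive. Of the 56 genes, 37 (66.1%) had a positive difference and 19 a negative one, with a median of 0.09, where 50.2% of all genes were positive and their median was 0.00. Among the 31 genes above the table median, 23 were positive with a median of 0.12, whereas the median of all genes above it was -0.04. Without KO replicate 2 these medians were 0.04 for the 31 genes and -0.06 for all genes, so both were lower without that array. Among the 25 below it, 14 were positive with a median of 0.04, and the median of all genes below it was 0.05. The median of the 25 was -0.05 without KO replicate 3 and 0.11 without KO replicate 2. CXC ligands were positive in 11 of 13 cases (median 0.18) and CC ligands in 10 of 19 (median 0.04). The CC ligand median had no stable direction, at -0.0028 without KO replicate 3 and 0.01 without KO replicate 2. CC receptors were positive in 5 of 10 (median 0.01, and 0.09 without KO replicate 2) and CXC receptors in 4 of 6 (median 0.08). The 56 genes were not independent of each other, and no test was made of these medians.

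**Figure D2:**
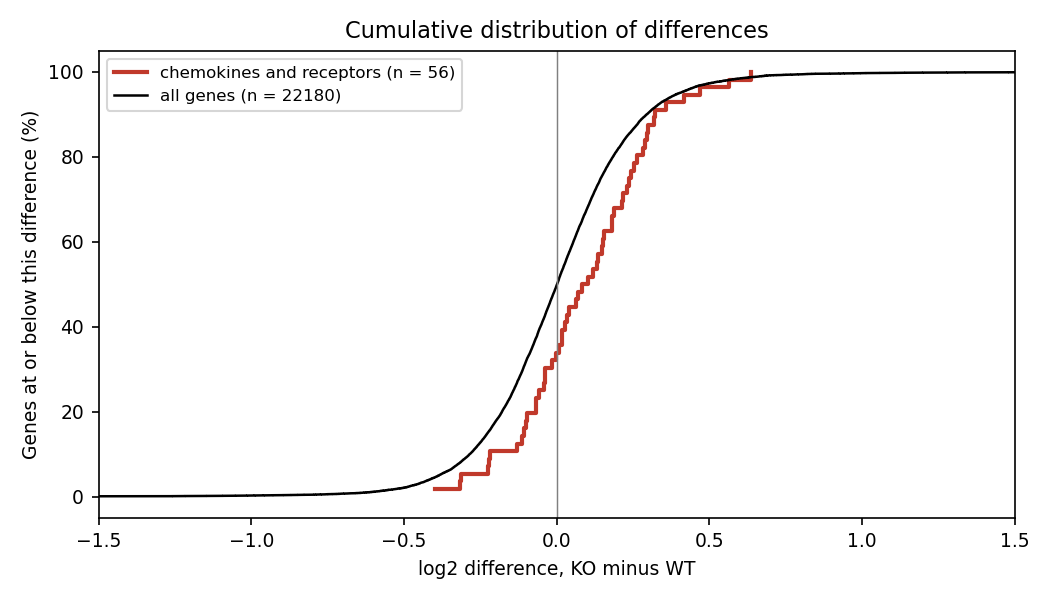
Cumulative share of genes (y axis, percent) at or below each log2 difference (KO minus WT, x axis) for the 56 chemokine and receptor genes and for all 22180 genes. The chemokine curve lies to the right of the curve of all genes around 0 (medians 0.09 and 0.00) and meets it at the upper end.

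The groups did not overlap in 6 genes that were higher in KO (Ccl1, Ccl9, Cxcl3, Cxcl12, Xcr1 and Ackr1), or 10.7%, against 7.61% of all genes. They did not overlap in 2 that were lower (Ccr1 and Cxcl15), or 3.57%, against 9.14% of all genes. With 3 arrays in each group the smallest exact 2-sided permutation p is 0.1. Every gene without overlap has that value, so for Ccl9, Cxcl3 and Xcr1 it only restates the lack of overlap. Ccl20, whose groups overlapped, had 0.2.

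Among the CC ligands, Ccl9 gave the clearest separation of the groups. Ccl9 is a rodent chemokine that acts through Ccr1 on myeloid cells. It lay at 8.25, 7.90 and 8.18 in KO arrays and at 7.46, 7.80 and 7.66 in WT arrays. Every KO array was above every WT array, and the nearest of them were KO replicate 2 and WT replicate 2. The difference was 0.47 (SE 0.15, 95% interval 0.13 to 0.81), a 1.39-fold higher level with limma adjusted p = 0.347. It was 0.38 to 0.57 when any array was left out. The Ccl9 mean lay at percentile 96.2 of all genes. Ccl6, its neighbour and also a Ccr1 ligand, lay at 3.57, 4.23 and 4.44 in KO arrays against 4.42, 3.99 and 4.01 in WT arrays. Those groups overlapped, with a difference of -0.06 (95% interval -0.57 to 0.46). Their receptor Ccr1 had 1.92, 1.89 and 1.73 in KO arrays and 2.32, 2.17 and 1.98 in WT arrays, a difference of -0.31 (SE 0.14, adjusted p = 0.478). All Ccr1 values were below the table median.

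Ccl20 attracts lymphocytes and dendritic cells through Ccr6. It lay at 3.25, 3.38 and 3.80 in KO arrays against 3.80, 3.84 and 3.99 in WT arrays. KO replicates 1 and 2 were below all WT arrays, and KO replicate 3 lay within the WT range. The difference was -0.40 (SE 0.16, limma adjusted p = 0.439) and -0.56 without KO replicate 3 (adjusted p = 0.193). Ccr6 had 3.15, 2.62 and 2.57 in KO arrays and 2.44, 2.68 and 3.13 in WT arrays, with the groups mixed and a difference of 0.03.

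The monocyte-attracting ligands showed no separation. Ccl2, the main ligand of the monocyte receptor Ccr2, lay at 3.08, 2.90 and 3.09 in KO arrays and 3.06, 2.97 and 3.23 in WT arrays, a difference of -0.07 (95% interval -0.37 to 0.24). The other Ccr2 ligands Ccl7 (0.04) and Ccl12 (-0.04) also differed by less than their standard errors. Ccr2 itself was dim, at 2.66 to 2.72 in KO arrays and 2.46 to 2.66 in WT arrays, with a difference of 0.13.

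Ccl3, Ccl4 and Ccl5, inflammatory ligands that attract leukocytes, had differences of 0.16, 0.42 and 0.26 with limma adjusted p-values of 0.852, 0.591 and 0.744 in that order. The arrays of a group disagreed for these genes. Ccl5 lay at 4.18, 4.86 and 3.82 in KO arrays against 4.25, 3.87 and 3.95 in WT arrays, and its difference was -0.03 without KO replicate 2. Ccl4 lay at 3.64, 2.87 and 3.95 in KO arrays against 3.04, 3.28 and 2.90 in WT arrays, with KO replicate 2 the lowest of all 6. Its difference was 0.72 without KO replicate 2, where it passed an unadjusted p of 0.05, and 0.19 without KO replicate 3. The difference of Ccl3 ran between -0.04 without WT replicate 2 and 0.44 without WT replicate 3. The eosinophil-attracting ligands Ccl11 (0.08), Ccl24 (0.30) and Ccl26 (-0.04) overlapped between groups, as did their receptor Ccr3 (0.24).

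The remaining CC ligands act mostly on lymphocytes in barrier and lymphoid tissue. The Ccr4 ligands Ccl17 and Ccl22 differed by -0.02 and -0.22, and Ccr4 by -0.04. Ccl25 and its receptor Ccr9 differed by -0.11 and -0.22, and Ccl27a and Ccl28, ligands of Ccr10, by -0.32 and 0.04, with Ccr10 at 0.23. The dimmer Ccl27a probe set gave -0.09. Ccl1 and Ccl8, ligands of Ccr8 in the mouse, differed by 0.21 and 0.06, and Ccr8 by 0.24. Ccr7, which guides cells to lymph nodes, was the only CC receptor above the table median, at 3.998, 3.67 and 3.71 in KO arrays and 3.84, 3.74 and 4.18 in WT arrays. Its ligands Ccl19 and Ccl21 are covered by 13 and 9 probe sets shared between near-identical genes, which were not tested as genes here. Differences over these probe sets ran between -0.19 and 0.13 for Ccl19 and between -0.25 and -0.03 for Ccl21. Ccr1l1, a Ccr1 relative, differed by 0.00.

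Among the CXC ligands, Cxcl12 had the highest percentile of the 56 genes (98.3). Cxcl12 is the homeostatic ligand of Cxcr4 and Ackr3 and holds progenitor cells and lymphocytes in tissue. It lay at 8.95, 8.98 and 9.21 in KO arrays and 8.92, 8.86 and 8.79 in WT arrays. The groups did not overlap, but by a small margin, and the difference was 0.19 (SE 0.13, limma adjusted p = 0.646), and it was 0.11 without KO replicate 3. Cxcr4 lay at 4.07, 4.59 and 3.55 in KO arrays against 4.24, 4.20 and 4.43 in WT arrays (difference -0.22), so that KO arrays lay on both sides of the controls. Ackr3, which removes Cxcl12, lay at 3.46, 4.16 and 3.38 in KO arrays against 3.31, 3.47 and 3.35 in WT arrays, with KO replicate 2 apart from the other 5.

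Cxcl13, the attractant of B cells, lay at 5.54, 6.93 and 6.06 in KO arrays and 5.68, 5.63 and 5.53 in WT arrays. The 3 WT values were close together, while the KO values ran from the WT level to well above it. The difference was 0.56 (SE 0.29, limma adjusted p = 0.536). It was 0.88 without KO replicate 1, 0.19 without KO replicate 2 and 0.62 without KO replicate 3. The size of the Cxcl13 difference therefore depended on which KO array was left out. Cxcr5, its receptor, had 3.28, 3.21 and 3.13 in KO arrays and 3.38, 3.18 and 3.0008 in WT arrays, a difference of 0.02 with the groups mixed. Cxcl16, a membrane-anchored ligand for Cxcr6 on liver natural killer T cells, lay at 5.12, 5.96 and 4.82 in KO arrays and 5.34, 5.08 and 5.03 in WT arrays. Its difference was 0.15, and -0.18 without KO replicate 2. Cxcr6 was dim on every array, at 2.04, 2.16 and 1.97 in KO arrays and 2.46, 2.04 and 1.99 in WT arrays (difference -0.11).

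The interferon-induced ligands of Cxcr3, which attract activated T cells, lay near each other in the groups. Cxcl9 lay at 5.92, 6.41 and 5.98 in KO arrays and at 5.95, 5.43 and 6.27 in WT arrays, a difference of 0.22 (SE 0.22, limma adjusted p = 0.770) and -0.01 without WT replicate 2. Cxcl10 lay at 3.69, 4.29 and 4.54 in KO arrays and 4.05, 3.58 and 3.99 in WT arrays (0.30, SE 0.22), and Cxcl11 differed by 0.02. The groups overlapped in all of these. Cxcr3 had 3.03, 3.27 and 3.27 in KO arrays and 3.25, 2.91 and 2.97 in WT arrays, also with overlap, and differed by 0.15.

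The neutrophil-attracting ligands act on Cxcr2. Cxcl3 had the smallest p of the 56 genes, at 2.13, 1.88 and 1.90 in KO arrays against 0.93, 1.42 and 1.65 in WT arrays. All 6 values were far below the table median, at percentile 8.27 of all genes, and the difference of 0.64 (SE 0.19, 95% interval 0.21 to 1.06, limma adjusted p = 0.326) rests on signal of that weakness. Without WT replicate 1 it was 0.43. Cxcl1, above the table median, lay at 4.79, 4.84 and 4.67 in KO arrays and 4.76, 4.47 and 4.53 in WT arrays (0.18, SE 0.14). Cxcl2 overlapped between groups with a difference of -0.07, while Cxcl5 differed by 0.32 at a dim level and Cxcl15 by -0.10. Cxcr2 lay at 3.46, 3.16 and 3.49 in KO arrays and 2.91, 2.97 and 3.27 in WT arrays (0.32, SE 0.16, adjusted p = 0.507), with 1 WT array inside the KO range. Cxcr1 differed by 0.25, Cxcl14 by 0.10 and Cxcl17 by 0.18.

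Xcr1 marks the dendritic cells that cross-present antigen and is the receptor of Xcl1. It lay at 3.58, 3.49 and 3.69 in KO arrays and at 3.20, 3.38 and 3.10 in WT arrays, without overlap. The difference was 0.36 (SE 0.14, limma adjusted p = 0.407), or 1.28-fold. Without KO replicate 3 it was 0.30 and did not pass an unadjusted p of 0.05. Xcl1 lay at 3.15, 3.31 and 3.24 in KO arrays and 3.17, 3.21 and 3.30 in WT arrays and differed by 0.01. Cx3cl1 (0.12) and its receptor Cx3cr1 (0.13), found on monocytes and macrophages, both had standard errors above their differences. Cx3cr1 was at 3.98, 4.91 and 4.31 in KO arrays against 3.98, 4.54 and 4.27 in WT arrays.

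The atypical receptors Ackr1, Ackr2 and Ackr4 differed by 0.28, -0.10 and 0.07. Ackr1, which moves chemokines across venular endothelium, lay at 2.25, 2.23 and 2.35 in KO arrays and 2.02, 1.79 and 2.18 in WT arrays, without overlap but below the table median on all 6.

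**Figure D3:**
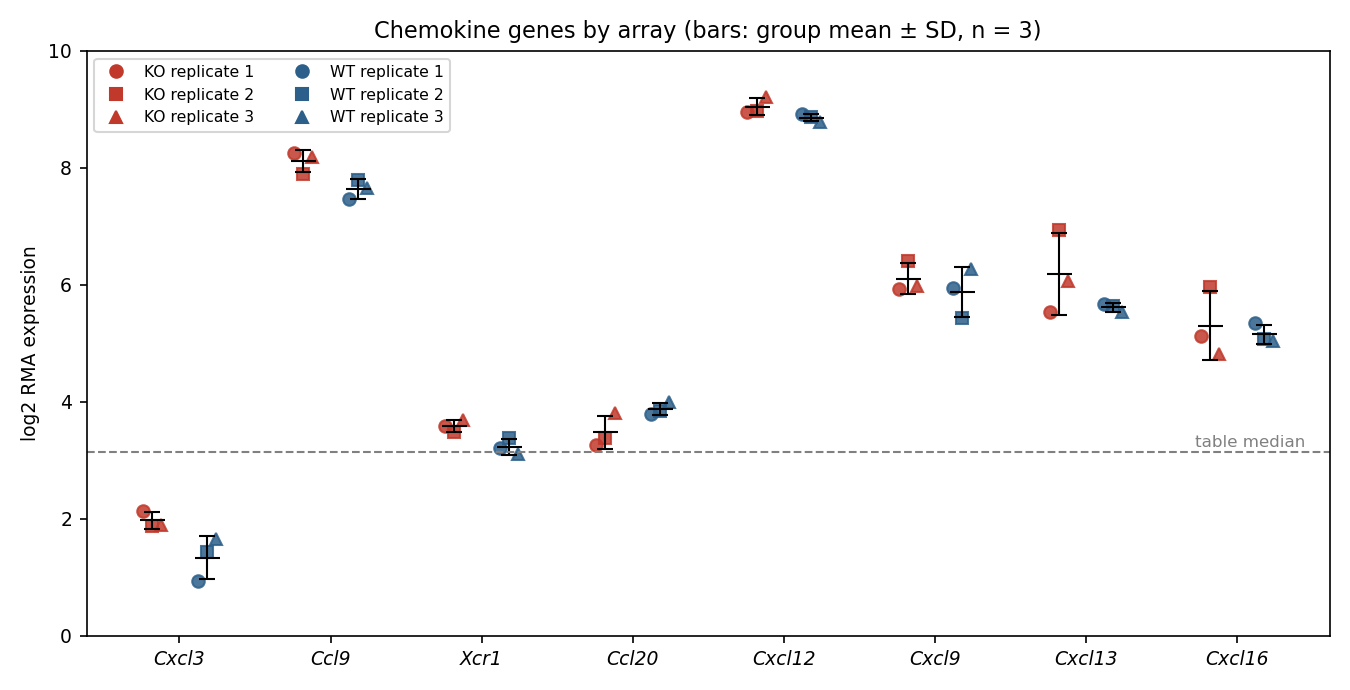
Log2 expression (y axis) on each of the 3 KO and 3 WT arrays for the 4 genes at an unadjusted p under 0.05 (left) and the 4 others in the top 25% of all genes by mean (right); black bars give the group mean and SD, and the dashed line is the table median of 3.14. Ccl9, Cxcl3, Xcr1 and Cxcl12 show no overlap, and KO replicate 2 stands highest for Cxcl13 and Cxcl16.

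Judged against the table median of 3.14, 31 of the 56 genes (55.4%) had a mean above it, against 58.9% of all genes. On all 6 arrays, 24 lay above it and 13 below it. The 5 genes in the top 25% of all genes were the ligands Cxcl12, Ccl9, Cxcl9, Cxcl13 and Cxcl16. Of the 22 receptor genes, 9 (40.9%) had means above the table median, against 22 of 34 ligands (64.7%). The dim receptors were mostly CC receptors, with 1 of 10 above it. The CXC receptors had 4 of 6 above it (66.7%), the atypical receptors 2 of 4, and Cx3cr1 and Xcr1 both lay above it. Probe sets differ in response, so these positions place each gene in the table and do not order transcripts by amount.

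Chemokine genes lie in clusters. With neighbours taken as members no more than 500 kilobases apart in the RefSeq gene table, 35 of the 56 fell into 9 clusters. Neighbours did not share a direction throughout. In the cluster of Ccl5, Ccl9, Ccl6, Ccl3 and Ccl4, 4 of 5 were positive with a median of 0.26, and in that of Ccl2, Ccl7, Ccl11, Ccl12, Ccl8 and Ccl1, 4 of 6 were positive with a median of 0.05. The 5 neutrophil-attracting ligands from Cxcl5 to Cxcl2 ran between -0.10 and 0.64. The cluster of Cxcl9, Cxcl10 and Cxcl11 ran between 0.02 and 0.30, and that of 7 receptors from Ccr9 to Ccr2 between -0.31 and 0.36 with a median of 0.00.

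Of the 31 genes above the table median, 10 (32.3%) were highest in KO replicate 2, among them Cxcl13, Cxcl16, Ccl5, Cx3cr1 and Ackr3, where 21.7% of all genes above it were. Replicates 1 and 3 of the KO group each held the highest value of 6. Of the 25 genes below the table median, 9 (36.0%) were highest in KO replicate 1, where 24.9% of all genes below it were.

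**Figure D4:**
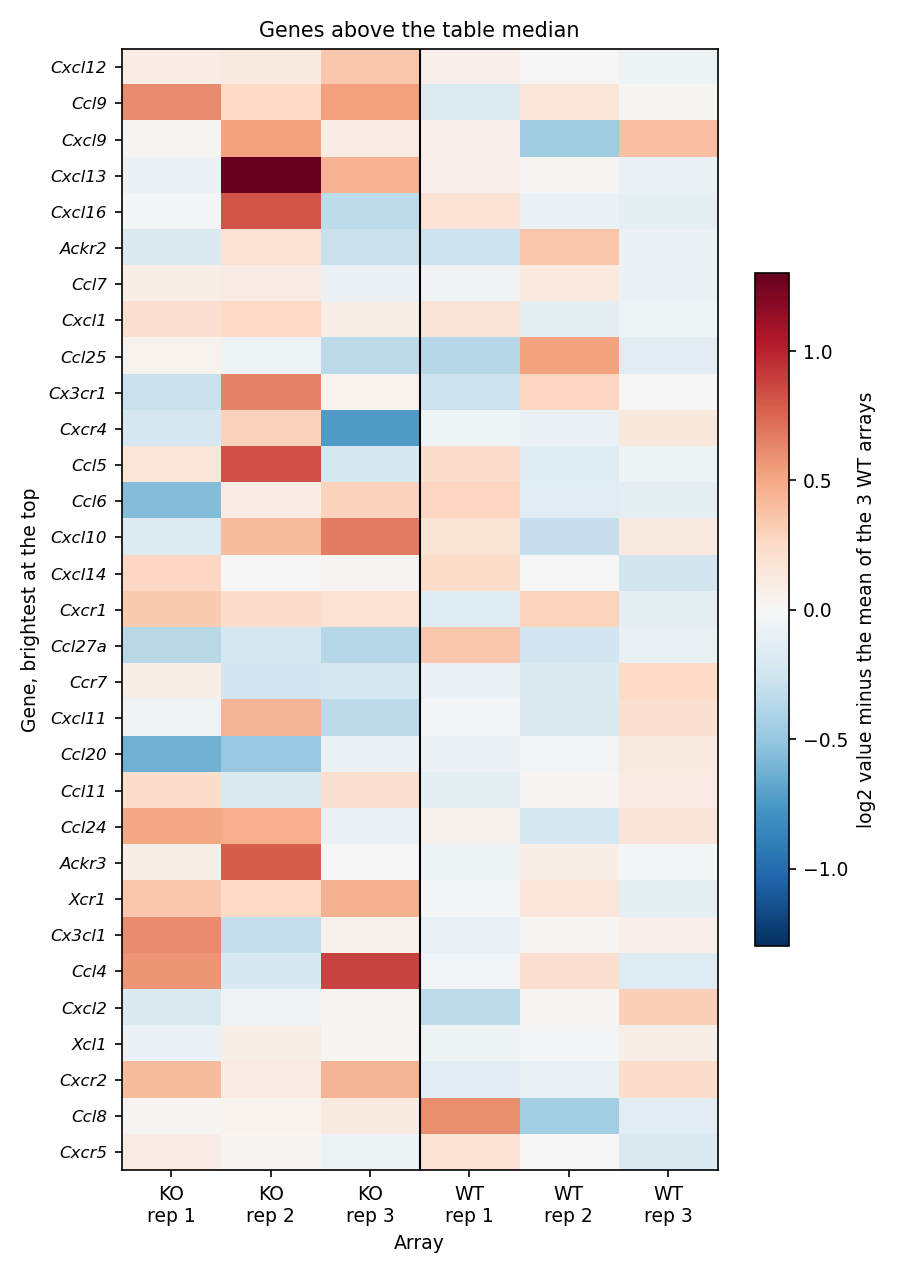
Log2 value of each of the 31 genes above the table median (rows, highest mean at the top) on each array (columns) minus the mean of the 3 WT arrays. KO replicate 2 is far above the controls at Cxcl13, Ccl5, Cxcl16 and Ackr3, and KO replicate 3 at Ccl4.

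Marker genes of leukocytes and other liver cells also differed between these arrays, and their part in the chemokine values was not tested. Of 15 Kupffer cell and macrophage markers, 13 (86.7%, against 5.06% of all genes) were higher at an unadjusted p under 0.05 and all 15 were positive. Their median was 0.81, against 0.09 for the chemokine genes. It was 0.52 without KO replicate 2 and 0.99 without KO replicate 3. Their mean log2 level was 6.34, 7.04 and 5.95 in KO arrays and 5.71, 5.61 and 5.599 in WT arrays, so KO replicate 2 stood highest there too. Clec4f, a lectin restricted to Kupffer cells, lay at 7.23, 8.28 and 6.82 in KO arrays and 6.65, 6.61 and 6.56 in WT arrays. C1qa (0.84), Marco (0.74), Cd68 (0.98) and Cd5l (1.4) had limma adjusted p-values of 0.221 to 0.272. Monocyte markers, 2 of 7 above the table median, were positive in 7 of 7, with mean levels of 3.73, 4.28 and 3.94 in KO arrays and 3.53, 3.44 and 3.36 in WT arrays. Their median was 0.36, and 0.16 without KO replicate 3. At an unadjusted p under 0.05, 3 (42.9%, against 5.06% of all genes) were higher and 0 lower: Plac8 (1.17), Ly6c2 (1.28) and Fn1 (0.36). Fn1 lay at percentile 99.8 of all genes. Ly6c2 was dim, at 2.55, 4.003 and 2.18 in KO arrays and 1.83, 1.82 and 1.22 in WT arrays. Itgam (0.02), F13a1 (0.25) and Chil3 (0.40) did not pass.

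Neutrophil markers were dim, with 4 of 12 above the table median, and had mean levels of 2.77 to 2.85 in KO arrays and 2.54 to 2.62 in WT arrays. Their median was 0.19. Of these, 4 (33.3%, against 5.06% of all genes) were higher and 0 lower at an unadjusted p under 0.05 (Mmp8 0.74, Mmp9 0.46, S100a8 0.46 and Retnlg 0.59). The granule genes Camp (-0.41), Ngp (0.05) and Elane (0.06) and the surface marker Ly6g (-0.01) did not pass. Dendritic cell markers had levels of 3.81 to 3.87 in KO arrays and 3.56 to 3.69 in WT arrays, with 6 of 8 positive and a median of 0.11, and 0.07 without KO replicate 2 or KO replicate 3. Cd209a (0.83, limma adjusted p = 0.151) and Clec10a (0.44) were higher at an unadjusted p under 0.05 (25%, against 5.06% of all genes), and 0 were lower. Batf3, a transcription factor needed by the dendritic cells that carry Xcr1, did not pass and had a difference of -0.21, opposite in sign to that of Xcr1. Lymphocyte markers did not separate the groups, with medians of -0.03 for 11 T cell genes, 0.05 for 9 NK cell genes and 0.01 for 7 B cell genes (-0.10 without KO replicate 2). The NK cell median was 0.11 without KO replicate 3. Cd3e (0.61) and Cd22 (0.51) alone of these were higher at an unadjusted p under 0.05. They made 9.09% of the T cell genes and 14.3% of the B cell genes, against 5.06% of all genes. Platelet markers had a median of 0.10, and 0.19 without KO replicate 3, with 0 of 7 past that mark.

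Endothelial markers had mean levels of 5.88, 6.56 and 6.02 in KO arrays against 5.95, 5.87 and 5.92 in WT arrays, and the stellate cell and fibroblast list had 5.30, 5.78 and 5.28 in KO arrays against 5.36, 5.16 and 5.18 in WT arrays. KO replicate 2 was the highest of the 6 in both, and without it their medians were -0.04 and 0.02, against 0.16 and 0.11 with it. Without KO replicate 3 they were 0.24 and 0.32. At an unadjusted p under 0.05, 2 of 12 endothelial genes (16.7%, against 5.06% of all genes) were higher, Lyve1 (0.92) and Cdh5 (0.54), and 0 lower. Clec4g (-0.0008), Fcgr2b (0.05) and Stab2 (0.27) did not pass. Of 14 stellate cell genes, 3 (21.4%) were higher, Col3a1 (0.86), Col1a2 (0.60) and Ecm1 (0.54). There was 1 lower (7.14%, against 5.46% of all genes), Acta2 (-0.39), and Col1a1 (0.13) did not pass. At that mark, bile duct markers (median 0.04) had 0 higher and 1 (16.7%, against 5.46% of all genes) lower, Krt23 (-0.43). Of 12 hepatocyte markers (median -0.12), 1 (8.33%, against 5.06%) was higher, Fgb (0.43). Another 3 (25%, against 5.46%) were lower, Hnf4a (-0.36), Pck1 (-0.36) and Tat (-0.38). Of 11 markers of adipose, pancreas and gut (median -0.08), 0 were higher and 2 (18.2%, against 5.46%) lower, Fabp2 (-0.75) and Cidec (-1.22).

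**Figure D5:**
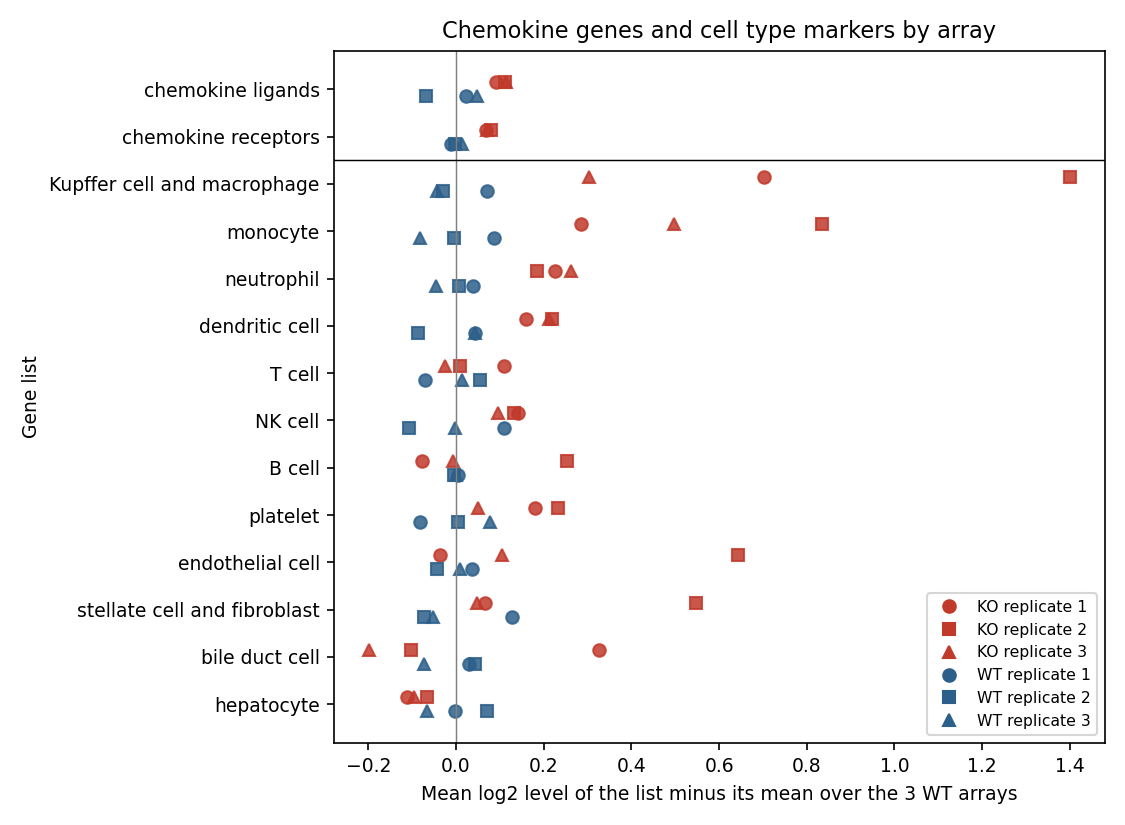
Mean log2 level of each gene list on each array minus the list's mean over the 3 WT arrays (x axis), for the chemokine ligands and receptors (top) and for cell type markers. Macrophage markers reach 1.4 above the controls in KO replicate 2, while ligand and receptor means stay within 0.12 of theirs.

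Across all ligands the mean log2 level was 3.88, 3.90 and 3.91 in KO arrays and 3.82, 3.73 and 3.84 in WT arrays, and across all receptors it was 3.002, 3.02 and 3.01 in KO arrays and 2.92, 2.93 and 2.95 in WT arrays. Both separated the groups by less than 0.1 at the nearest arrays, where the mean of all genes was 3.92 to 3.93 on every array.

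Genes that carry the signal inside the responding cell were also measured. Of 28 G protein and effector genes, 2 (7.14%) were higher and 0 lower at an unadjusted p under 0.05. Among all genes 5.06% were higher, 5.46% were lower and 10.5% passed in either direction. The 2 were the leukocyte genes Vav1 (0.54) and Rac2 (0.59). The list's median was 0.06, and 0.02 without KO replicate 2 and 0.10 without KO replicate 3. Rac2 lay at 6.90, 7.18 and 6.73 in KO arrays and 6.24, 6.20 and 6.58 in WT arrays, without overlap. Of 13 genes of receptor desensitisation, Rgs2 (0.73) and Arrb1 (0.36) were higher and 0 lower at an unadjusted p under 0.05. This was 15.4%, against 5.06% of all genes higher and 10.5% in either direction, and 3 of the 13 differences were negative. The median was 0.14, and 0.06 without KO replicate 2 and 0.31 without KO replicate 3. Rgs2 had 4.41, 5.44 and 4.22 in KO arrays and 3.97, 3.80 and 4.12 in WT arrays, and its difference was 0.35 without KO replicate 2. Arrb1 differed by 0.24 without that array. Arrestins such as Arrb1 uncouple receptors from G proteins.

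Proteases that cut or shed chemokines had a median of 0.06, and 0.18 without KO replicate 3. Of 14, 3 (21.4%, against 5.06% of all genes) were higher and 0 lower at an unadjusted p under 0.05 (Ctss and the neutrophil list's Mmp8 and Mmp9). In either direction the share of all genes was 10.5%. Ctss, a lysosomal protease of macrophages, lay at 7.22, 8.26 and 6.80 in KO arrays and 6.60, 6.26 and 6.01 in WT arrays, without overlap and with a difference of 1.14 (limma adjusted p = 0.313). Adam17, a sheddase of membrane-bound chemokines, differed by -0.35. Among 15 chemoattractant genes with other symbols, 1 (6.67%, against 5.06% of all genes) was higher at an unadjusted p under 0.05. It was C3ar1, the receptor of a complement fragment (0.80, limma adjusted p = 0.264). C5ar1 (-0.34) and the platelet chemokine gene Ppbp (0.64) did not pass. Ppbp had KO replicate 2 at 4.27 and the other 5 arrays at 2.28 to 2.92.

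Genes that induce chemokines gave 8 higher (27.6%, against 5.06% of all genes) and 1 lower (3.45%, against 5.46%) of 29 at an unadjusted p under 0.05. Both directions made 31.0%, against 10.5% of all genes. The median was 0.22, and 0.12 without KO replicate 2. The cytokine genes Il1a (0.26), Il1b (-0.27), Ifng (-0.11), Il17a (0.04) and Il6 (0.22, at percentile 5.97) did not pass. Neither did the factors Cebpb (-0.15) and Fos (0.06). Irf1 lay at 4.84, 5.05 and 4.96 in KO arrays and 4.56, 4.49 and 4.37 in WT arrays. Nfkbiz, a cofactor of NF-kB, differed by 0.51 and Stat3, which relays interleukin 6 signals, by 0.44, each without overlap. Jun, a subunit of AP-1, was the lower gene, at 4.62, 5.65 and 5.59 in KO arrays and 7.10, 5.99 and 6.52 in WT arrays (-1.25, limma adjusted p = 0.286). In every one of these lists 0 genes passed an adjusted p of 0.05 in limma.

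Over the 27 ligand and receptor combinations measured at both ends, the partners of the 4 genes with the smallest p gave no common direction: Cxcr2 differed by 0.32, Ccr1 by -0.31, Xcl1 by 0.01 and Ccr6 by 0.03.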

How the data were processed

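The deposited table holds log2 expression values made by the authors with RMA in Affymetrix Expression Console 1.4.1, per the submitters' processing notes, for 41345 probe sets on 6 arrays. Per the labels' protocols, labelling started from 100 ng of total RNA. Genome build and filters are not given in the sources used here. Because RMA equalises the arrays, a rise or fall common to nearly every transcript is removed.

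Probe sets with 1 symbol in the array annotation (23521, against 1814 with several and 16010 not listed) gave 22180 genes, keeping the probe set with the highest mean per gene. The values were not normalized or filtered again and were compared in R 4.3.3 by limma 3.58.1 (lmFit, then eBayes). The robust alternative used statmod 1.5.0. The fit was tested on simulated data over 22180 genes, where at an adjusted p under 0.05 it recovered 2% of 50 genes shifted by 0.5, 62% at 1, 94% at 2 and 100% at 3, with 5 false calls. The number of arrays limits the precision. The members and the 18 lists were chosen with earlier results of these data known. Every member may be named. Values on every array are given for members at an unadjusted p under 0.05, those in the top 25% by mean and their ligand or receptor partners, and for others chosen after their values were seen. No arrays were identical. Deviations of arrays with the same replicate number correlated at 0.01, 0.05 and 0.02, so the numbers were not treated as pairs.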

Additional observations from a re-analysis of the deposited data

How the results depend on the processing

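Under each of the 15 alternatives, 0 chemokine genes passed an adjusted p of 0.05, and the smallest adjusted p ranged from 0.193 without KO replicate 3 to 0.690 without WT replicate 2. The median difference of 0.09 stayed positive throughout, between 0.07 and 0.12. The count at an unadjusted p under 0.05 was 4, and 3 to 6 under the alternatives that kept all arrays; leaving out 1 array gave between 1 and 7. It was 7 without KO replicate 2, 7 without WT replicate 3 and 1, Cxcl3, without WT replicate 1. Ccl9 was in all of these sets except the last. Xcr1 was missing without KO replicate 3, WT replicate 1 or WT replicate 3. Of the sets that left out 1 array, Ccl20 was only in the one without KO replicate 3. Ccl20 was also missing when all probe sets were adjusted together. Cxcl16 turned to -0.18 without KO replicate 2 and ran up to 0.39 without KO replicate 3. Cxcl9 turned to -0.0114 without WT replicate 2 and ran up to 0.41 without WT replicate 3. The replicate block gave 4 genes at an unadjusted p under 0.05 and changed no call. Over all genes, 0 passed an adjusted p of 0.05 in limma, against 66 without KO replicate 3 and 8 after the filter on dim probe sets. After that filter 33 of the 56 genes were left, Cxcl3 not among them. Signal limits the dim genes, and 13 of the 56 lay below the table median on all 6 arrays.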
